A study of Mus musculus with 8 samples.

Results

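Integrins are the receptors through which fibroblasts hold on to the extracellular matrix, and focal adhesions are the protein assemblies that tie them to the actin cytoskeleton. The genes described here encode 12 integrin alpha subunits, 7 beta subunits and 18 adaptors and kinases of focal adhesions, 37 genes in all out of 21656 measured. They were chosen by name as a functional group, with earlier results of these data known. Each gene's value is the mean log2 intensity over the array rows whose annotation names that gene and no other, and all 37 genes had such rows (1124 of 307991).

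The study compared primary mouse embryonic fibroblasts, bought from Millipore and grown on 100 mm dishes in serum-supplemented DMEM, after 24 h at 1% oxygen (MEF_hypoxic, 4 samples, here hypoxia) with cells kept at atmospheric oxygen (MEF_normoxic, 4 samples, here normoxia). No allele, transgene or drug distinguished the groups. The strain, the age of the embryos and the number of animals or cell lots behind the cultures are not given in the sources used here. Total RNA of each dish was amplified from 50 ng and hybridised to 1 Affymetrix Mouse Exon 1.0 ST array, so the precision is limited by the number of arrays. The methods call the replicates biological, but nothing ties them to separate animals, and p-values therefore measure the spread between these dishes.

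All 11 fibroblast markers lay above the level of silent genes defined below. The mean log2 intensity over this list was 7.50 to 7.66 in the normoxia arrays and 7.51 to 7.65 in the hypoxia arrays. Single markers ran in normoxia from 4.09 (Dcn) to 10.54 (Fn1). Some markers of other cell types were also above the level of silent genes. These were 6 of 10 epithelial, 4 of 8 muscle, 4 of 6 neural, 2 of 9 blood and 2 of 10 platelet and endothelial markers. Among them were Krt8 and Krt19 (epithelium), Myod1 and Acta1 (muscle), Nes and Tubb3 (neural) and Cd68 and Cd3e (blood). Ptprc (leukocytes), Pecam1 and Cdh5 (endothelium), Epcam (epithelium) and Myog (muscle) were not above it. These counts neither show other cell types nor exclude them. All 6 hypoxia control genes were higher in hypoxia, among them Bnip3, a mitochondrial mitophagy receptor (3.40 on the log2 scale), and Vegfa, the angiogenic growth factor (0.87). Between arrays of the same group the correlation over rows was 0.923 to 0.944 in normoxia and 0.859 to 0.878 in hypoxia. The interquartile range of the log2 intensities was 2.77 to 2.90 in the normoxia arrays and 2.51 to 2.61 in the hypoxia arrays. The hypoxia arrays were thus the more compressed, and the part of this in the values below was not tested. Over all genes 217 were higher and 259 lower in hypoxia, and the median log2 difference was -0.05. Of these calls 45.6% were higher, a share that became 62% after quantile normalization and 77.4% with each array centred on its median gene.

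An integrin is a pair of 1 alpha and 1 beta subunit. The alpha subunit largely decides which matrix protein is bound: collagen, laminin, or proteins that carry the Arg-Gly-Asp (RGD) motif such as fibronectin. The beta tail recruits talin and kindlin, which switch the receptor on, and around them vinculin, alpha-actinin and filamin connect to actin, the complex of ILK, PINCH and parvin forms a second link, and the kinases FAK and Src pass the signal on. Fibroblasts in culture are known for prominent focal adhesions.

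Lower values prevailed among these genes in hypoxia, and most single differences were small. In 34 of the 37 genes the hypoxia mean lay below the normoxia mean, beside 57% of all genes. The median log2 difference was -0.25 (hypoxia minus normoxia, as throughout), beside -0.05 over all genes. Only Itga8 and Actn4 passed the test across all genes (limma, Benjamini-Hochberg adjusted p under 0.05). Both were lower, 2 of 37, beside a background of 1.2% of all genes called lower and 2.2% called in either direction. None passed as higher, beside 1.0%. In 17 of the 37 genes every hypoxia array lay below every normoxia array, beside 9.58% of all genes, and in none did every hypoxia array lie above, beside 5.48%. At an unadjusted p under 0.05, 17 genes were lower and 0 higher in limma, beside 13.5% and 8.67% of all genes. Many of all genes were dim, whereas 33 of the 37 lay above the level of silent genes defined below. Of the 11499 genes above that level, 77% had a lower mean, 16.9% separated downward and the median difference was -0.16. At an unadjusted p under 0.05 in limma, 2675 of these 11499 were lower and 401 higher. The count of lower calls depended on the fit: it was 1 with dim rows left out (background 0.796%), 9 with 4 added to the intensities (3.21%), 6 with a variance trend (2.11%) and 3 with array weights (2.07%), and Itga8 was among them each time. In bulk RNA of a dish, fewer cells of a kind and less RNA per cell cannot be told apart.

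**Figure D1:**
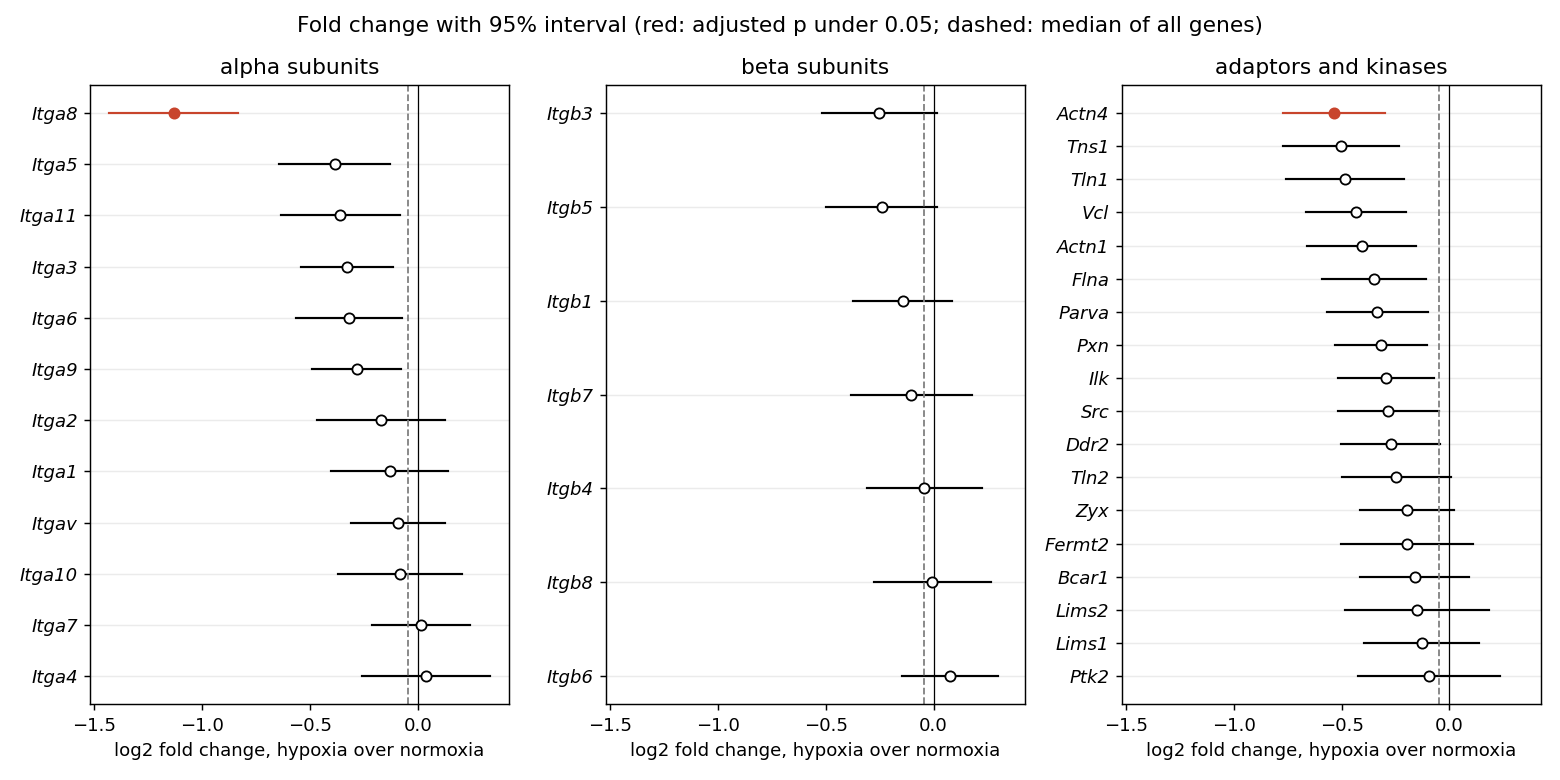
The log2 difference (hypoxia over normoxia) of each of the 37 genes is plotted by class with its 95% interval from limma; red marks an adjusted p under 0.05 and the dashed line the median of all genes, -0.05. Itga8 stands far to the left at -1.13, the beta subunits lie between -0.25 and 0.08, and all 18 adaptors and kinases lie below 0.

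The RefSeq promoter windows of 3 genes are shown: those of the called genes Itga8 and Actn4, and that of vinculin (Vcl), the member whose window held all 3 motifs searched. Each runs from 250 bases before to 50 bases after the gene start on GRCm38.p6, and capitals mark motif matches.
Itga8, chr2:12301895-12302194, minus strand: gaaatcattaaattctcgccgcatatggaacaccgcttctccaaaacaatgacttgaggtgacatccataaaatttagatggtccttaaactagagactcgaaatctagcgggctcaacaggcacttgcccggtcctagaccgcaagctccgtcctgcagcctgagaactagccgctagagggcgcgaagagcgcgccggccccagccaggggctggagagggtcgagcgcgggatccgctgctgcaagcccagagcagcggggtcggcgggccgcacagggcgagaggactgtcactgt
Actn4, chr7:28962283-28962582, minus strand: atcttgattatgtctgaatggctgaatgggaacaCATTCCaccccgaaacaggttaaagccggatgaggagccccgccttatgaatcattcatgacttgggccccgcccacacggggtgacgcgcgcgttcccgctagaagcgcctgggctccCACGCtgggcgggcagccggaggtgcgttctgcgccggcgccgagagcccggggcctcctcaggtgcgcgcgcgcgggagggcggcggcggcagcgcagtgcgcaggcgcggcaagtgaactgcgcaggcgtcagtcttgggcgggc
Vcl, chr14:20929148-20929447, plus strand: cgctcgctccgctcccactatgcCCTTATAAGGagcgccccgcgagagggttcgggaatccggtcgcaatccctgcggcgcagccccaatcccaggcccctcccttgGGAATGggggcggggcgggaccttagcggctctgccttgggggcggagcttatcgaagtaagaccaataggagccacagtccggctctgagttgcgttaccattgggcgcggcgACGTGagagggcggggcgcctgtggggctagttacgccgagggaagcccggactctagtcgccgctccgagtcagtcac
The motifs searched on both strands were the hypoxia-inducible factor core (ACGTG or GCGTG), the TEAD core (GGAATG) and the CArG box, the site of serum response factor. The Itga8 window held none of them. The Actn4 window held a hypoxia-inducible factor core on the other strand, CACGC, 97 bases before the gene start, and a TEAD core as CATTCC, 216 bases before it. In the Vcl window the CArG box lay 227 bases, the TEAD core 143 bases and ACGTG 29 bases before the start. A window was found for 28 of the 37 genes (34 windows, since some genes have several). Of these windows 47.1% held the hypoxia-inducible factor core, beside 43.8% of all 32851 windows in the table, 14.7% held the TEAD core, beside 14.7%, and 8.82% (3 windows, of Fermt2, Itgb6 and Vcl) held a CArG box, beside 1.63%. These matches describe letters only and carry no measurement of binding.

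Itga8, the alpha subunit that pairs with beta 1 to bind RGD ligands such as nephronectin and fibronectin and that is best known from the developing kidney and from smooth muscle, fell the most of all 37 genes. Its log2 intensity was 4.45, 4.91, 4.85 and 4.53 in normoxia replicates 1 to 4 and 3.46, 3.55, 3.47 and 3.74 in hypoxia replicates 1 to 4. The groups did not overlap, and the lowest normoxia array stood well clear of the highest hypoxia array. The mean went from 4.69 ± 0.23 (SD, n = 4) to 3.56 ± 0.13, a log2 difference of -1.13 (SE 0.14, 95% interval -1.43 to -0.83, adjusted p = 0.0028), which left 45.6% of the normoxia intensity. Only 7 of the 21656 genes had a lower log2 difference. The call held under all 17 alternatives, with adjusted p from 0.000706 to 0.0467 and, on the log2 scale, differences from -1.30 to -0.92.

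Most rows of Itga8 were lower. Of its 34 rows, 31 were lower in hypoxia on average, 22 passed an exact one-sided rank-sum test as lower and 0 as higher, and 20 were at least 1 lower on the log2 scale. The 3 rows that were not lower were all dim, with log2 levels of at most 2.07. With rows below the table median left out, the difference was -1.27 (adjusted p = 0.0063).

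The ligands of the alpha 8 beta 1 pair named here gave no call in the main fit. Npnt, which encodes nephronectin, differed by -0.27 (adjusted p = 0.362), Fn1, which encodes fibronectin, by -0.03 (0.902), Spp1, which encodes osteopontin, by -0.30 (0.119), and Tnc, which encodes tenascin C, by 0.24 (0.217). Vtn, which encodes vitronectin, had a level of 2.05, within the range of silent genes.

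The other RGD-binding alpha subunits had smaller differences. Itga5, the fibronectin receptor subunit of fibroblasts, read 6.62, 6.80, 6.83 and 6.63 in the normoxia arrays and 6.42, 6.26, 6.51 and 6.15 in the hypoxia arrays. Every hypoxia array was below every normoxia array, and the mean was 6.72 ± 0.11 (SD, n = 4) against 6.34 ± 0.16, a log2 difference of -0.39 (SE 0.12) that did not pass the threshold (adjusted p = 0.0979). Itgav, the subunit of the vitronectin receptors, had 6.29 ± 0.07 in normoxia and 6.20 ± 0.08 in hypoxia, a difference of -0.09 with a 95% interval of -0.31 to 0.13.

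Among the collagen-binding alpha subunits (Itga1, Itga2, Itga10 and Itga11) the median log2 difference was -0.15 and no gene was called. Itga11, the collagen receptor subunit of mesenchymal cells, read 6.66, 6.75, 6.79 and 6.60 in normoxia and 6.50, 6.41, 6.42 and 6.03 in hypoxia. The groups did not overlap, hypoxia replicate 4 was the lowest array, and the difference of -0.36 (SE 0.12, adjusted p = 0.132) became -0.26 without that array. Itga1 differed by -0.13, Itga2 by -0.17 and Itga10 by -0.08, each with overlapping arrays and an interval that included 0.

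Of the laminin-binding alpha subunits, Itga3 and Itga6 were lower in every hypoxia array and Itga7, best known from muscle, was not. Itga3 lay at 3.16 to 3.31 in normoxia and 2.82 to 2.97 in hypoxia (difference -0.33, SE 0.10, adjusted p = 0.0936), and Itga6 at 3.40 to 3.69 and 3.07 to 3.26 (difference -0.32, SE 0.11, adjusted p = 0.133). The difference of Itga7 was 0.02, with a 95% interval of -0.21 to 0.24.

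Itga4 and Itga9, the pair of related subunits that bind tenascin C, osteopontin or fibronectin, were dim. Levels of 1249 olfactory and vomeronasal receptor genes, which fibroblasts do not use, served as the measure of silence, and 95% of them lay at or below a log2 level of 2.63. Itga4, Itga9 and Itga10 lay at or below that level, as did Itgb6 among the beta subunits, so that 33 of the 37 genes were above it. The receptor genes themselves had a median log2 level of 1.15 in normoxia and 1.41 in hypoxia. Itga9 still read lower in all 4 hypoxia arrays (2.23 to 2.32, beside 2.47 to 2.60, difference -0.28, adjusted p = 0.119), whereas Itga4 overlapped, with a difference of 0.04.

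**Figure D2:**
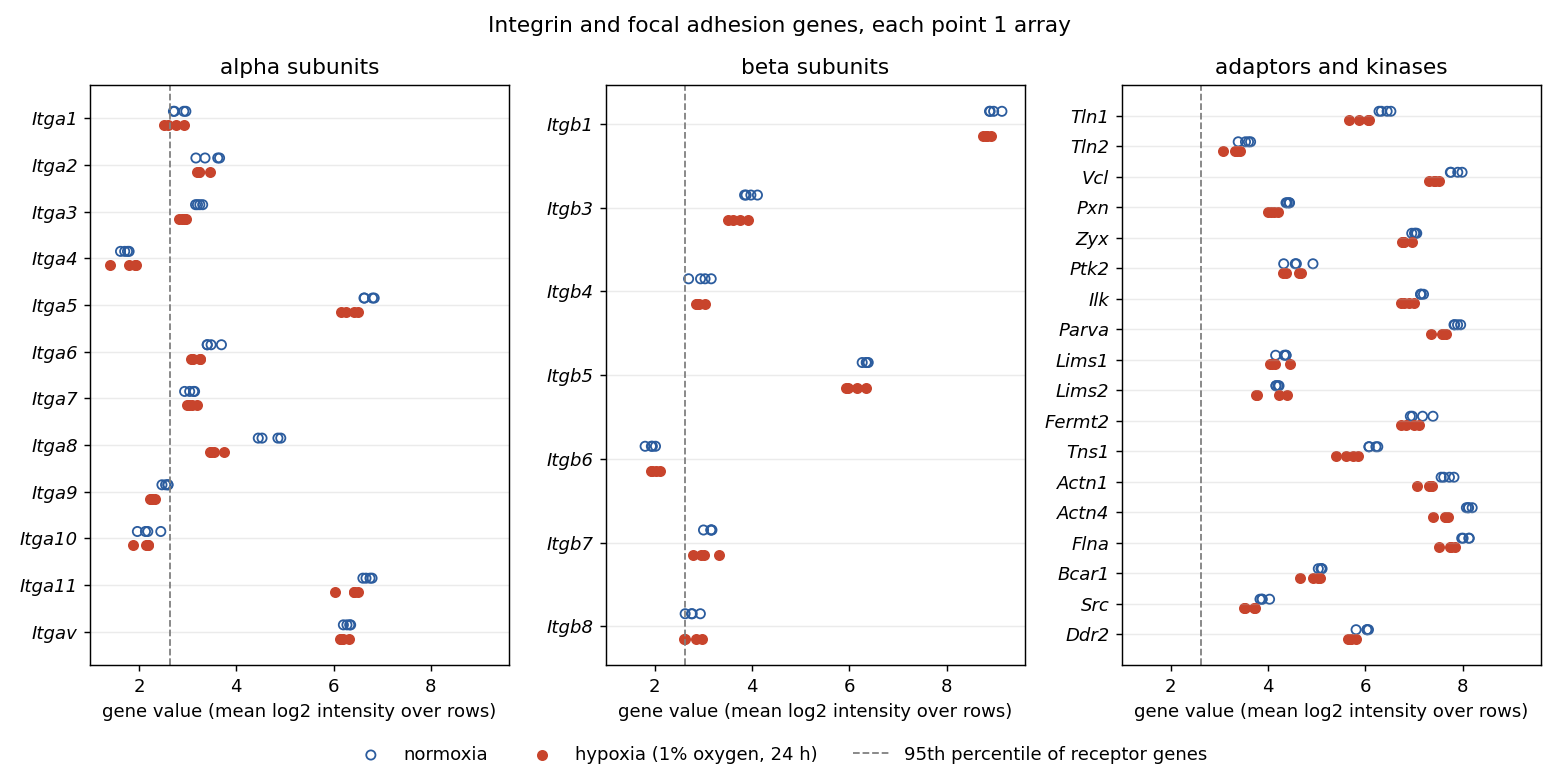
The log2 intensity of each of the 37 genes is plotted with 1 point per array, open circles for the 4 normoxia arrays above filled circles for the 4 hypoxia arrays, and a dashed line at 2.63, the 95th percentile of the receptor genes. The 2 groups of points stand wide apart in Itga8, do not overlap in 17 genes, all of them alpha subunits or adaptors and kinases, and overlap in all 7 beta subunits.

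The beta subunits had the smallest median difference on the log2 scale. None of the 7 passed the test in limma, 0 were lower at an unadjusted p under 0.05 (2 with 4 added to the intensities and 1 with a variance trend, beside 13.5% of all genes in the first fit), and in none did the groups separate, beside 9.58% of all genes. In 6 the difference was below 0 and the median was -0.10. On relative ranks the order differed, with medians of -2.38 percentile points in alpha subunits, -1.33 in beta subunits and -1.05 in adaptors and kinases. The rank median over all genes was -0.72. The classes are of unlike brightness and were matched for it on neither scale, so neither order can be read as a difference between classes. Itgb1, the common partner of most alpha subunits above, read 8.89, 9.13, 8.96 and 8.88 in normoxia and 8.75, 8.82, 8.80 and 8.92 in hypoxia. Hypoxia replicate 4 lay above 2 of the normoxia arrays. The means were 8.97 ± 0.12 (SD, n = 4) and 8.82 ± 0.07, a difference of -0.14 (SE 0.10, 95% interval -0.37 to 0.09, adjusted p = 0.439), so a fall larger than 0.37 lay outside the interval. At the level of rows, 17 of the 20 rows of Itgb1 were lower on average and 8 passed the rank-sum test.

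Itgb3 and Itgb5, which pair with the alpha v subunit, had the largest differences of the class. Itgb3 read 3.88, 3.97, 3.84 and 4.11 in normoxia and 3.62, 3.92, 3.75 and 3.51 in hypoxia, a difference of -0.25 (SE 0.12, adjusted p = 0.253). Itgb5 read 6.35, 6.34, 6.39 and 6.26 in normoxia and 5.97, 6.34, 6.15 and 5.92 in hypoxia, a difference of -0.24 (SE 0.12, adjusted p = 0.255). In each gene hypoxia replicate 2 lay within the normoxia range. The epithelial subunits Itgb4 and Itgb6 differed by -0.04 and 0.08, the leukocyte subunit Itgb7 by -0.10 and Itgb8, which activates latent TGF-beta, by -0.01, with all 4 intervals including 0. The difference between the steep fall of Itga8 and the small one of its partner Itgb1 is given as 2 values and was not tested.

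The adaptors and kinases all had a lower mean in hypoxia, 18 of 18, with differences from -0.54 to -0.10 and a median of -0.29. All 18 were above the silent level, and of all genes above it 77% were lower, with a median of -0.16. In 11 of the 18 the groups did not overlap, beside 9.58% of all genes and 16.9% of those above the silent level. Of the 18, 1, Actn4, passed the test, beside 1.2% of all genes. The 8 genes listed here as actin-linking or talin and kindlin genes (Tln1, Tln2, Vcl, Actn1, Actn4, Flna, Tns1 and Fermt2) had a median difference of -0.42 on the log2 scale, and 6 of them separated the groups. On relative ranks their median was -0.98 percentile points, beside -1.05 over all 18. There 3 of the 8 separated the groups downward, beside 6 of the 18 and 6.8% of all genes. Neither scale was matched for brightness, so neither can order the sets. Actn4, at a level of 7.86, had -0.54 on the log2 scale and -0.97 percentile points. Itga9, at a level of 2.41, had -0.28 and -6.73. No difference between the sets was tested.

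Actn4, alpha-actinin 4, crosslinks actin filaments at adhesions and stress fibres. It read 8.08, 8.11, 8.20 and 8.12 in normoxia and 7.67, 7.69, 7.63 and 7.38 in hypoxia. The normoxia arrays lay close together and all hypoxia arrays were lower, with replicate 4 the lowest. The mean fell from 8.13 ± 0.05 (SD, n = 4) to 7.59 ± 0.14, a log2 difference of -0.54 (SE 0.11, 95% interval -0.77 to -0.30, adjusted p = 0.0361), or 69.0% of the normoxia intensity. All 26 rows of the gene were lower on average and 19 passed the rank-sum test. The direction held under all 17 alternatives, but the call held under 3 of them only, with adjusted p up to 0.699 on relative ranks and 0.0521 to 0.128 when 1 array was left out.

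Tns1, tensin 1, which binds integrin tails and actin in long-lived adhesions, had the next largest difference. It read 6.08, 6.22, 6.26 and 6.07 in normoxia and 5.60, 5.74, 5.85 and 5.41 in hypoxia, without overlap, and the difference was -0.51 (SE 0.12, adjusted p = 0.0577). Tln1, the talin that activates integrins, had 6.28 to 6.53 in normoxia and 5.66 to 6.07 in hypoxia (difference -0.49, SE 0.12, adjusted p = 0.0673). Vcl, vinculin, which reinforces the talin to actin link under tension, had 7.75 to 7.99 and 7.31 to 7.51 (difference -0.43, SE 0.11, adjusted p = 0.059). None of the 3 passed the threshold, although every hypoxia array was below every normoxia array in each.

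Actn1, the second non-muscle alpha-actinin, and Flna, filamin A, which crosslinks actin into networks, also had separate groups without a call. Flna read 7.98, 8.13, 8.14 and 8.01 in normoxia and 7.84, 7.75, 7.74 and 7.51 in hypoxia, a difference of -0.35 (SE 0.11, adjusted p = 0.105). Actn1 lay at 7.56 to 7.82 in normoxia and 7.06 to 7.37 in hypoxia, a difference of -0.41 (SE 0.11, adjusted p = 0.0845). The related genes Tln2, a second talin, and Fermt2, the kindlin of fibroblasts, overlapped between the groups, with differences of -0.25 (SE 0.11) and -0.20 (SE 0.14). Hypoxia replicate 4 was the lowest hypoxia array in 9 of the 18 adaptors and kinases, and without it the median difference of the 8 actin-linking genes was -0.37.

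In the complex of ILK, PINCH and parvin, the scaffold pseudokinase Ilk differed by -0.29 (SE 0.10, adjusted p = 0.131) and Parva, the alpha-parvin that binds actin, by -0.33 (SE 0.11, adjusted p = 0.11), both without overlap between the groups. All rows of Parva were lower in hypoxia, with row differences from -0.55 to -0.01. Lims1 and Lims2, the PINCH proteins, differed by -0.13 (SE 0.12) and -0.15 (SE 0.15) and overlapped.

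Of the docking proteins, Pxn, paxillin, was lower in every hypoxia array (4.0 to 4.20, beside 4.37 to 4.44, difference -0.32, SE 0.10, adjusted p = 0.102). Zyx, the LIM protein zyxin of mature adhesions, also separated the groups, with a smaller difference of -0.20 (SE 0.10, adjusted p = 0.265), and Bcar1, p130Cas, did not separate them (-0.16, SE 0.11). Among the kinases, Src differed by -0.28 (SE 0.11, adjusted p = 0.153) with separate groups. Ddr2, a receptor kinase for fibrillar collagen, differed by -0.27 (SE 0.10, adjusted p = 0.161), and Ptk2, which encodes FAK, by -0.10 with a 95% interval of -0.42 to 0.23. Arrays of the last 2 overlapped.

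Most of the adaptors were bright on these arrays, and differences over all genes varied with brightness, so the members were set beside genes of the same brightness. Of 993 genes with a log2 level above 6, 69.9% were lower in hypoxia, the median difference was -0.11, and in 21.9% the groups separated downward. The 14 members in that range were all lower, with a median of -0.34, and 10 of them (71.4%) separated. Between levels 4 and 6 the 8 members had a median of -0.22, beside -0.18 for 4122 genes, and 37.5% of them separated, beside 21.1%. From 2.63 to 4 the 11 members had a median of -0.17, beside -0.15 for 6384 genes, and 27.3% separated, beside 13.5%. At or below 2.63 the 4 members had a median of -0.02, beside 0.09 for 10157 genes, and 1 of them separated, beside 1.23%. On the log2 scale the widest gap between the medians of members and other genes was thus above level 6. After quantile normalization, which gives every array the same distribution over rows, the bright members had a median of -0.30 and all bright genes -0.07. Differences over all genes still varied with brightness after it. The median was 0.04 at or below 2.63 and -0.11 from 2.63 to 4. On relative ranks within each array, Itgb1, Ilk and Fermt2 had differences slightly above 0. The 33 members above the silent level had a median of -1.33 percentile points, beside -1.50 for all genes above it. The rank medians were not matched for brightness.

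**Figure D3:**
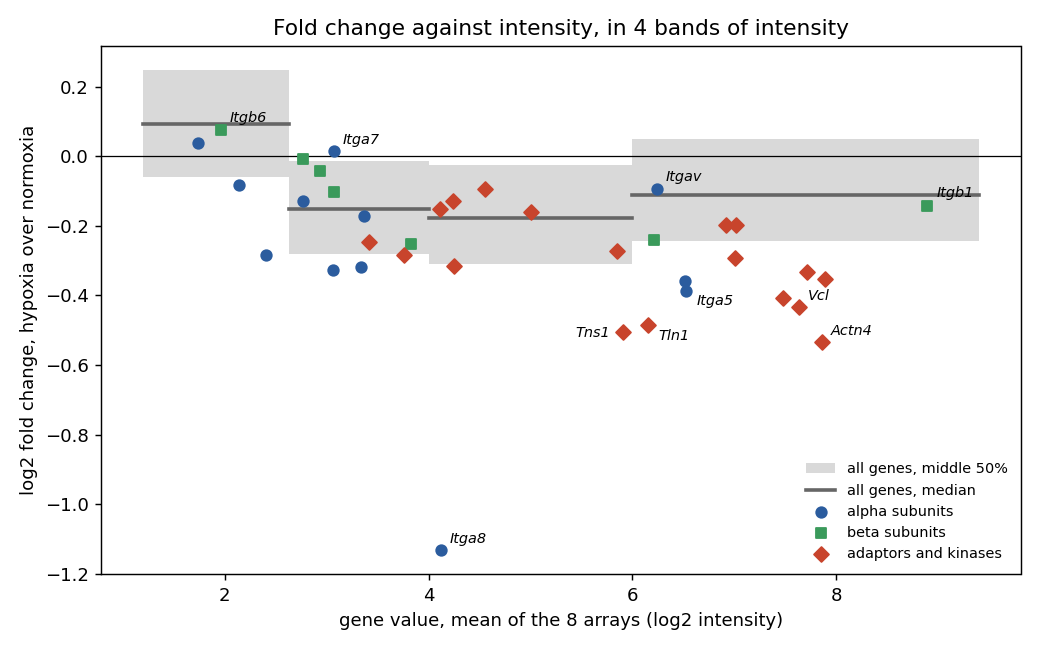
The log2 difference (hypoxia over normoxia) of the 37 genes is plotted against their mean log2 intensity over the 8 arrays, over grey boxes and lines that give the quartiles and the median of all genes in 4 ranges of intensity. Genes up to the silent level of 2.63 have a median of 0.09, the brighter ranges have medians from -0.18 to -0.11, and 9 of the 14 members above level 6 lie below the lower quartile of -0.24.

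The same pattern appeared in the single rows, the measure closest to the probe-level view of the study. Of the 1124 rows of these genes, 255 (22.7%) were lower in hypoxia by the exact one-sided rank-sum test at 0.05 and 26 (2.31%) higher, beside 7.95% lower and 5.32% higher over all 307991 rows. The share of lower rows was 16.3% in alpha subunits, 9.77% in beta subunits and 31.4% in adaptors and kinases. Without Itga8 the share of lower rows was 21.4% over the remaining 1090 rows. Of rows at or above the table median, 11.1% were lower over all genes. There the shares were 21.2% in alpha subunits, 13.2% in beta subunits and 33.3% in adaptors and kinases. With relative ranks in place of log2 values, 19.4% of the rows of these genes were lower, beside 6.57% of all rows. Rows of 1 gene share the same arrays and are not replicates. Itga7 and Itgav had rows on either side, with 2 lower and 1 higher of 30 rows and 3 lower and 2 higher of 46 rows.

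**Figure D4:**
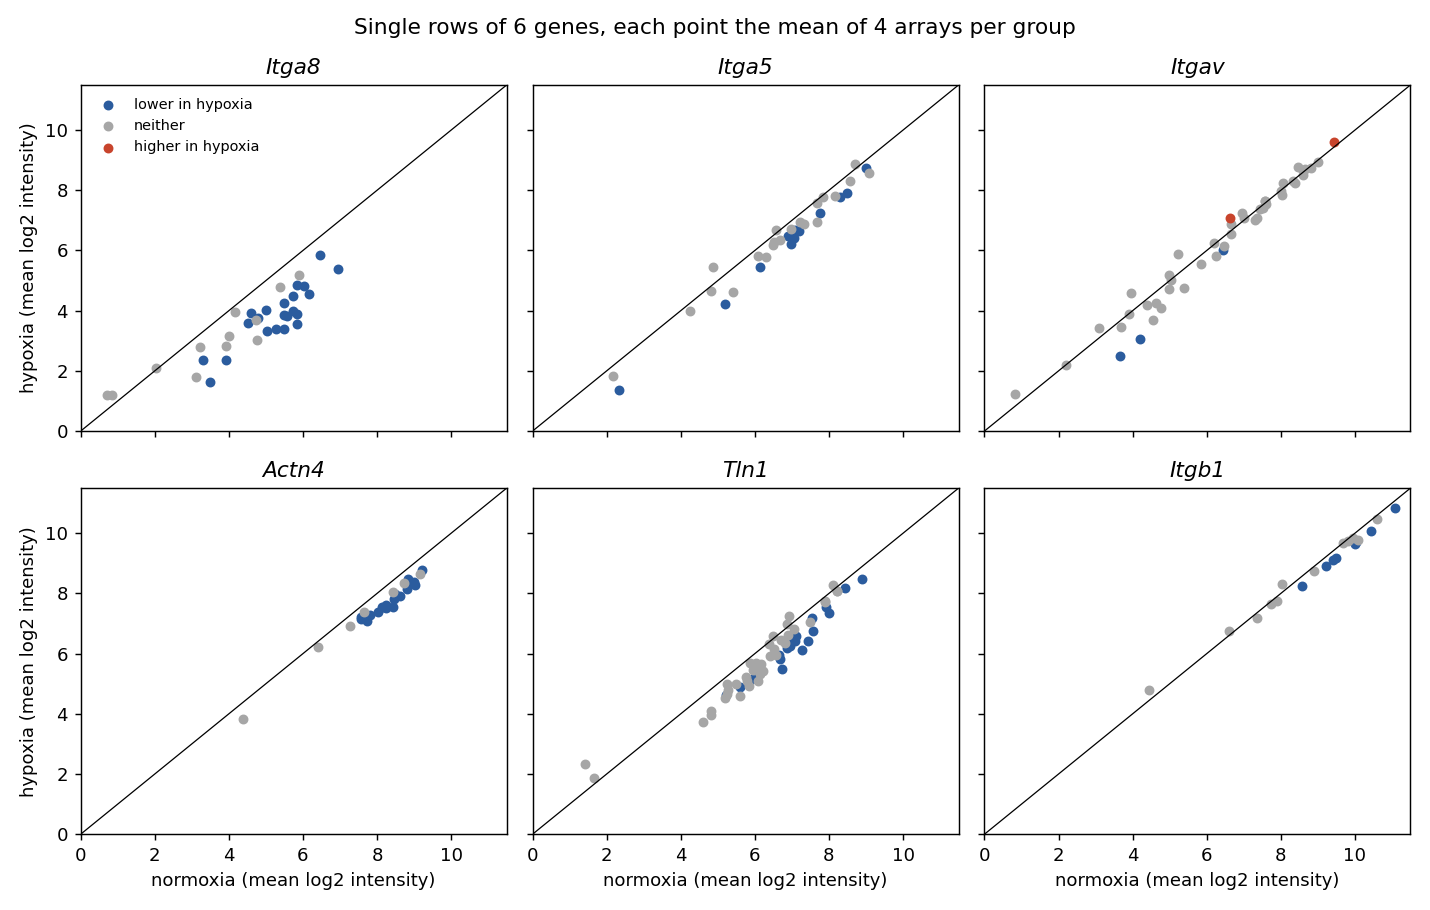
For 6 genes each row is plotted as a point at its mean log2 intensity over the 4 normoxia arrays (horizontal) and the 4 hypoxia arrays (vertical), with a line of equal values and colours for rows called lower or higher by the exact one-sided rank-sum test at 0.05. Rows of Itga8 run far below the line except for the 3 dimmest that were not lower, all 26 rows of Actn4 lie below it, most of Tln1 and Itga5 do, rows of Itgb1 lie close to it, and those of Itgav scatter on both sides.

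The remaining genes of the adhesion pathway were taken from a wider list of 65 adhesion components, of which 62 were measured. None passed the test in limma in either direction (8 were lower with 4 added to the intensities), while 26 were lower and 3 higher at an unadjusted p under 0.05, beside 13.5% and 8.67% of all genes. Their median difference was -0.24, 50 were below 0, and 21 (33.9%) separated the groups downward, beside 9.58% of all genes. Of the 62 genes 57 were above the silent level, and over all 11499 genes above it the median was -0.16, 77% were below 0 and 16.9% separated downward. Of 8 integrin subunits of leukocytes and platelets, 1 was above the silent level, no difference was called, and the median difference was 0.06.

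Among 30 genes for integrin ligands the median difference was -0.10, with 9 lower and 3 higher at an unadjusted p under 0.05, beside 13.5% and 8.67% of all genes. Of the 30 genes 25 were above the silent level. Over all 11499 genes above it the median was -0.16, with 2675 lower and 401 higher at an unadjusted p under 0.05 in limma. A pair of laminin alpha chains was called, in opposite directions, beside 1.2% of all genes called lower and 1.0% higher. Lama5, the alpha chain of laminins of epithelial and vascular basement membranes, was lower by -0.55 (adjusted p = 0.0342, called under 7 of 17 alternatives), and Lama4, the alpha chain of mesenchymal and endothelial laminins, was higher by 0.55 (adjusted p = 0.0426, called under 4).

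Some markers of other cell types moved beside these genes. Of 8 muscle markers, 4 were above the silent level, beside 11499 of all 21656 genes. The mean level over the list was 3.19 to 3.37 in normoxia and 2.97 to 3.25 in hypoxia. Acta1, skeletal alpha-actin, was called lower (-0.58, adjusted p = 0.0352). Myog was at the level of silent genes, while Myod1 (2.98) lay above that level. Of 10 epithelial markers, 6 were above it, with 2.35 to 2.70 in normoxia and 2.60 to 2.69 in hypoxia, and Krt19, a simple epithelial keratin, was called higher (1.49) while Epcam was silent. Of 9 blood, 10 platelet and endothelial and 6 neural markers measured, 2, 2 and 4 were above the silent level and none was called in limma (at an unadjusted p under 0.05, 1 blood and 1 neural marker were higher and 2 neural markers lower). Of the 11 fibroblast markers, with a median difference of -0.02, 3 had higher and 1 had lower values when p was not adjusted (0.05), and the 1 that passed the adjusted test was Pdgfrb, a growth factor receptor (-0.64, adjusted p = 0.0381). The collagen gene Col3a1 (0.49, adjusted p = 0.0515) and Pdgfra, the related receptor (0.42, adjusted p = 0.0827), separated the groups upward without passing it. The part of these markers in the values of the adhesion genes was not tested.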

How the data were processed

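The deposited table held linear intensity values for 641130 probe sets (rows) of 8 arrays, 4 per group, made by the authors; their background correction, normalization and summarization are not given in the sources used here. Groups came from the sample labels, which give 4 arrays per condition where the methods state more. Rows whose platform annotation names 1 gene (48.0%; 7047 name several and 326092 none) were taken to log2 without a pseudocount and averaged per gene (median 11 rows). Of 21842 symbols, 3985 were updated through RefSeq synonyms and 63 matched none. Hypoxia was compared with normoxia on all 8 arrays with limma 3.58.1 (lmFit, eBayes, two-sided, no covariate) in R 4.3.3, with Benjamini-Hochberg adjustment over 21656 genes and a threshold of 0.05. Tests were tried on simulated data first. The data for limma held independent normal noise and changes in 200 of 21656 genes. In that setting limma called 16% of changes of 0.5 and 84% of changes of 1 on the log2 scale. These shares need not hold where more genes change. A missing call at a difference of 0.5 or less therefore says little about absence of change. No row was filtered for brightness; dropping rows below the table median (log2 2.36; 18848 genes left), other summaries and scalings, an added intensity of 4, other variance fits and leaving out each array were the alternatives. Values by array are given for genes past the threshold in the main or filtered fit, and for the 2 with the largest difference and the 2 brightest of each class; further members are given as ranges. The members and lists were chosen with earlier results of these data known. No batch or scan date is given in the sources used here.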

Additional observations from a re-analysis of the deposited data

Results flagged for a closer look

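In 4 of 74 groups of 4 arrays (37 genes in normoxia and hypoxia), 1 array stood apart from the other 3 by Dixon's criterion; chance gives such a gap in about 1 in 20 groups. Itgb7 had a low value in normoxia replicate 2 (3.001, the others 3.150 to 3.174). Lims1 had one in normoxia replicate 1 (4.158, the others 4.337 to 4.371), and Ddr2 in the same array (5.811, the others 6.035 to 6.065). Zyx had a high value in hypoxia replicate 1 (6.949, the others 6.762 to 6.788).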

How the results depend on the processing

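Itga8 was lower under all 17 alternatives, and 25 of the 37 members never changed sign. No member was called higher under any. Members called lower, all genes lower and all genes higher were 1, 150 and 100 with dim rows left out, 1, 33 and 71 with the median of rows, 1, 82 and 134 after quantile normalization, 1, 71 and 243 with arrays centred on their median gene, 1, 10 and 39 on relative ranks, 9, 696 and 221 with 4 added to the intensities, 6, 457 and 226 with a variance trend, and 3, 448 and 345 with array weights. Leaving out 1 array gave 1 to 1, 20 to 141 and 69 to 156, with 20 and 69 without normoxia replicate 3; Actn4 lost its call without any 1 of the 8. With the replicate number as a block the counts were 1, 19 and 64, but same-numbered arrays deviated with correlations from -0.16 to 0.06 and so share only a number. Members that separated the groups downward numbered 17 in the main fit. Their number was 12 on relative ranks (6.8% of all genes), 12 with the median of rows (6.9%) and 13 with centred arrays (5.1%). It was 17 after quantile normalization (7.1%), 18 with 4 added (10.3%) and 19 with dim rows left out (14.5%). Rows of the members called higher numbered 10 with dim rows left out. Some differences changed sign, most of them close to 0 in the main fit. With dim rows left out these were Itga4 (-0.39), Itga7 (-0.000393) and Itgb6 (-0.0273); with the median of rows Itgav (0.0328), Itgb8 (0.14) and Lims2 (0.0284); after quantile normalization Itga4 (-0.017), Itgb8 (0.0068) and Ptk2 (0.0025); with centred arrays Itgb4 (0.0229) and Itgb8 (0.0593); with array weights Itga7 (-0.0126) and Itgb8 (0.0169). On ranks (in percentile points) they were Itga4 (-0.39), Itga7 (-0.0265), Itgb1 (0.20), Ilk (0.046) and Fermt2 (0.0362). Itgb1, Ilk and Fermt2 changed sign on ranks only, with log2 differences of -0.14, -0.29 and -0.20 in the main fit. With 1 array left out Itga4 ran from -0.0224 to 0.16, Itga7 from -0.0258 to 0.0445, Itga10 from -0.16 to 0.005, Itgb4 from -0.13 to 0.0242, Itgb8 from -0.0765 to 0.0482 and Ptk2 from -0.19 to 0.0131. The cause was not tested.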
